A study of Mus musculus with 6 samples.

Results

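The genes described here encode 7 factors that skeletal cells make and that osteoclasts or their precursors respond to: Tnfsf11, Tnfrsf11b, Csf1, Il34, Cxcl12, Ccl2 and Il6. They were taken by symbol from a deposited RNA-seq table, where they fill 12 of 31055 transcript lines and make 7 of 23364 gene symbols. All 7 were found. RPKM, a read number scaled to transcript length and to all mapped reads, was added up over each gene's transcripts within a library. Csf1 and Cxcl12 had 3 transcripts each, Il34 had 2, and the other genes had 1.

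Bone-building osteoblasts were set against chondrocytes, which make and maintain cartilage. The osteoblast group held 3 libraries of cells sorted for green fluorescent protein (GFP) from the calvaria, the bony roof of the skull, released with Liberase TM, with the genotype labelled Sp7 positive. The chondrocytes gave 3 libraries, from wild-type rib cartilage, released with Pronase and Collagenase D and not labelled as sorted. Both groups were C57BL/6 mice at postnatal day 1. Cell type, body site, sorting, genotype and enzyme all went with the group and cannot be told apart, and the labels do not say which promoter drives the GFP, whether animals were pooled, or whether the libraries of a group came from separate animals. The p-values below therefore measure the spread between libraries, which may be technical.

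Osteoclasts resorb bone and arise from precursors of the monocyte line. RANKL, the product of Tnfsf11, binds RANK on these precursors and drives them to become osteoclasts, and osteoprotegerin, the product of Tnfrsf11b, is a secreted decoy that captures RANKL. Csf1 and Il34 encode ligands of the receptor Csf1r, which keeps the precursors alive. The chemokines Cxcl12 and Ccl2 attract or retain blood-forming cells and monocytes, and the cytokine Il6 can raise RANKL in stromal cells.

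The libraries matched their labels. All 7 osteoblast markers were higher in osteoblasts and all 7 chondrocyte markers were lower. Dmp1 and Phex, 2 of the osteoblast markers, reached 1 RPKM in osteoblast libraries alone, so they could only be called higher. Matn1, 1 of the chondrocyte markers, reached 1 RPKM in chondrocyte libraries alone, so it could only be called lower. Sp7, the osteoblast factor named in the genotype label, averaged 119 ± 13.4 RPKM in osteoblasts and 1.44 ± 0.761 RPKM in chondrocytes, and Col2a1, the main cartilage collagen, averaged 30.8 ± 6.21 and 37358 ± 10651 RPKM in the same order (SD, n = 3 each). The estimated depth was 26.9 to 34.6 megareads in osteoblasts and 33.6 to 35.8 megareads in chondrocytes, so that 1 RPKM in a transcript of 2 kb stood for 53.8 to 71.7 reads. The 20 most abundant genes took 16.6% to 17.5% of all RPKM in osteoblasts and 28.0% to 33.2% in chondrocytes. The median of the 11218 genes tested was a log2(RPKM + 1) difference of 0.43, osteoblast minus chondrocyte, and 80.5% of called genes were higher in osteoblasts. After the libraries were rescaled by median of ratios the median was -0.0018 and that share was 48.6%. Each difference below is to be read against this shift, and those of Tnfsf11, Tnfrsf11b, Csf1 and Ccl2 kept their sign and their call on either scale. The groups did not overlap for 8484 of the 11218 genes tested, so a lack of overlap sets no gene apart. In bulk RNA, fewer cells of a type and less RNA per cell cannot be told apart.

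The promoters of Csf1, Il6 and Tnfsf11 are printed because Tnfsf11 and Csf1 separate the groups widely while Il6 varies most between osteoblast libraries. The windows hold the 250 bases before the start in RefSeq on build GRCm38.p6, which is not the build mm9 of the expression table. Csf1 lies at chr3:107760470-107760719, minus strand, Il6 at chr5:30012864-30013113, plus strand, and Tnfsf11 at chr14:78308044-78308293, minus strand. Of the 7 genes, 4 were in the promoter table, and Tnfrsf11b, Il34 and Ccl2 were not. Capitals mark matches to any of 4 motifs, searched on both strands: an NF-kB motif (GGGA, any base, TTTCC), an AP-1 motif (TGANTCA), a RUNX motif (TGTGGT) and a TATA motif (TATAAA).
Csf1: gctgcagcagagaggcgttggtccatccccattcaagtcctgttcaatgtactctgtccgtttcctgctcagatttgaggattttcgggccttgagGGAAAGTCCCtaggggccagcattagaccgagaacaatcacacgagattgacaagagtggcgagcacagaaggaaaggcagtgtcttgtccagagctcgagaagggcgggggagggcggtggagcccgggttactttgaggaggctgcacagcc
Il6: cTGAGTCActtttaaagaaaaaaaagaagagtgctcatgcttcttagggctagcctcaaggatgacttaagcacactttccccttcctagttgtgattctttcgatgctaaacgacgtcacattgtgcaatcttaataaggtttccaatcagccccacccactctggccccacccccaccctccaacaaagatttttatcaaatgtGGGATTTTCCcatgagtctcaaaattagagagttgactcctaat
Tnfsf11: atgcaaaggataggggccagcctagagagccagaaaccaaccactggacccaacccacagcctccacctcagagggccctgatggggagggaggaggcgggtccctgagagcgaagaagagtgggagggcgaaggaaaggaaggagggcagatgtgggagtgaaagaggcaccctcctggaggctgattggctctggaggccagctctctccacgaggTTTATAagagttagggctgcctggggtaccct
The NF-kB motif matched Csf1 once, its first base 154 bases before the start, and Il6 once, 44 bases before the start. It was found in 117 of 32851 windows of this length (0.356%). The AP-1 motif matched Il6 once (6.75% of windows) and the TATA motif matched Tnfsf11 once (12.4% of windows). Cxcl12 matched none of the 4, and no window of the 4 genes matched the RUNX motif (14.05% of windows). A match is a stretch of letters, not a shown binding site.

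Tnfsf11, which encodes RANKL, separated the groups most widely. It stood at 7.25, 5.20 and 5.28 RPKM in osteoblast replicates 1 to 3, and at 0.0134, 0.0798 and 0.0872 RPKM in chondrocyte replicates 1 to 3. Every osteoblast library was far above every chondrocyte library, where the values rest on an estimated 1.00, 5.98 and 6.98 reads. The mean was 98.3-fold higher in osteoblasts. The log2(RPKM + 1) difference was 2.69 ± 0.13 (SE; limma, Benjamini-Hochberg adjusted p = 5.69e-06 over all genes tested), a scale that understates changes of genes near 0. The gene passed the filter on low values through its osteoblast libraries alone, a property shared by 675 of the 11218 genes tested, so its direction was built in among tested genes.

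Tnfrsf11b, which encodes the decoy osteoprotegerin, went the other way. It stood at 7.94, 5.67 and 8.93 RPKM in osteoblasts, and at 19.1, 11.4 and 14.4 RPKM in chondrocytes. All chondrocyte libraries were above all osteoblast libraries, and their mean was 1.99-fold higher. The difference was -0.90 ± 0.21 on the log2(RPKM + 1) scale (SE; limma, adjusted p = 0.00693), and -1.33 relative to the median of all genes tested. The call held without any one library (adjusted p 0.00277 to 0.0255).

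**Figure D1:**
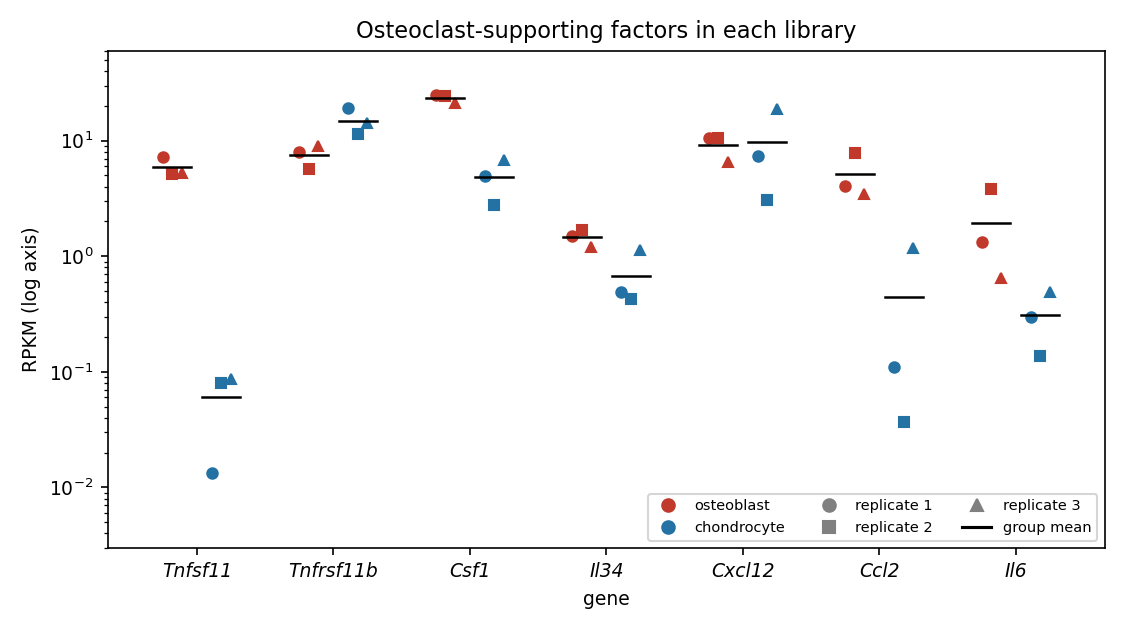
RPKM of the 7 genes in each library on a log axis, osteoblasts in red left of chondrocytes in blue, with the group mean as a black line. Tnfsf11 lies between 5.20 and 7.25 RPKM in osteoblasts and at or below 0.0872 RPKM in chondrocytes, Tnfrsf11b is the gene whose chondrocyte libraries all lie above the osteoblast libraries, and the groups overlap for Cxcl12.

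RPKM is scaled to transcript length, so ligand and decoy can be set against each other within a library. Per unit of Tnfrsf11b RPKM, osteoblasts held 0.912, 0.917 and 0.591 units of Tnfsf11 RPKM in replicates 1 to 3, and chondrocytes held 0.000702, 0.00700 and 0.00608. In osteoblasts the ligand was thus near the decoy in level, and in chondrocyte libraries the decoy exceeded the ligand by 1424-, 143- and 165-fold. These folds are rough, since Tnfsf11 in chondrocyte replicates 1 to 3 rests on an estimated 1.00, 5.98 and 6.98 reads. The log2 ratio of (RPKM + 1) averaged -0.29 ± 0.32 in osteoblasts and -3.88 ± 0.40 in chondrocytes (SD, n = 3 each), a difference of 3.59 with no overlap. The exact two-sided permutation test gave p = 0.1, the smallest value that 3 against 3 libraries allow.

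**Figure D2:**
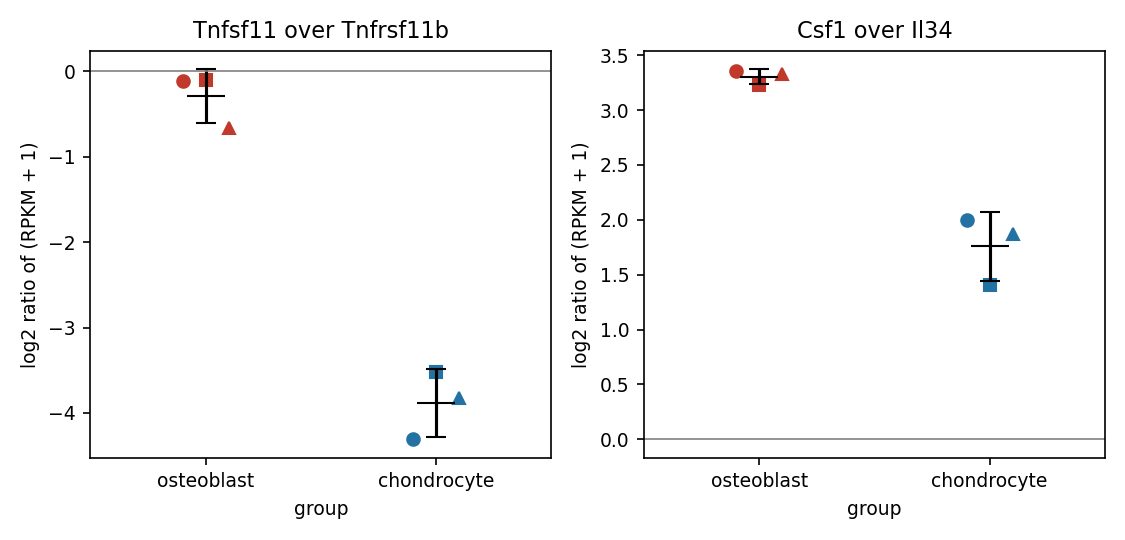
Log2 ratio of (RPKM + 1) in each library for Tnfsf11 over Tnfrsf11b and for Csf1 over Il34, osteoblasts left of chondrocytes, with group mean and SD in black. The first ratio averages -0.29 in osteoblasts and -3.88 in chondrocytes, and the second 3.31 and 1.76, without overlap in either panel.

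Of the ligands of Csf1r, Csf1 was the abundant one. Csf1, which encodes macrophage colony-stimulating factor, stood at 24.6, 24.3 and 21.2 RPKM in osteoblasts, and at 4.95, 2.77 and 6.76 RPKM in chondrocytes. The osteoblast libraries lay close together and well above the chondrocyte libraries. The mean was 4.85-fold higher in osteoblasts (log2(RPKM + 1) difference 2.12 ± 0.25 SE; limma, adjusted p = 0.000251).

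Il34 was low in both groups, at 1.503, 1.70 and 1.203 RPKM in osteoblasts, against 0.488, 0.423 and 1.12 RPKM in chondrocytes. The lowest osteoblast library was only just above the highest chondrocyte library. Its difference of 0.58 ± 0.17 (SE; limma, adjusted p = 0.0179) lay 0.14 above the median of all genes tested. The call was lost without osteoblast replicate 1 (0.0559), osteoblast replicate 2 (0.0636) or chondrocyte replicate 1 (0.0601), and after median-of-ratios scaling, where the difference was 0.33 (limma, adjusted p = 0.113). Csf1 exceeded Il34 by 16.4-, 14.3- and 17.6-fold in RPKM in osteoblasts, and by 10.1-, 6.54- and 6.02-fold in chondrocytes. The log2 ratio of (RPKM + 1) was 3.31 ± 0.07 in osteoblasts and 1.76 ± 0.31 in chondrocytes (SD, n = 3 each; exact two-sided permutation test, p = 0.1, the smallest possible).

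The differences of all 7 genes can be read against those of all genes. At a filter of RPKM of at least 0.1 in at least 3 libraries, chosen after the data were seen so that every one of the 7 was tested, 5 were called higher in osteoblasts, 1 was called lower and 1 was not called. Of the 13968 genes tested there, 52.3% were called higher and 13.6% lower (limma, adjusted p under 0.05), and 65.9% either way, so most genes of the table differ and nothing is read from the count itself. At the stricter filter of RPKM of at least 1 in at least 3 libraries, 55.5% of 11218 genes were called higher, 13.5% lower and 69.0% either way. With no filter, the fit used for Il6, 21.7% of 23364 genes were called higher, 4.93% lower and 26.6% either way.

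**Figure D3:**
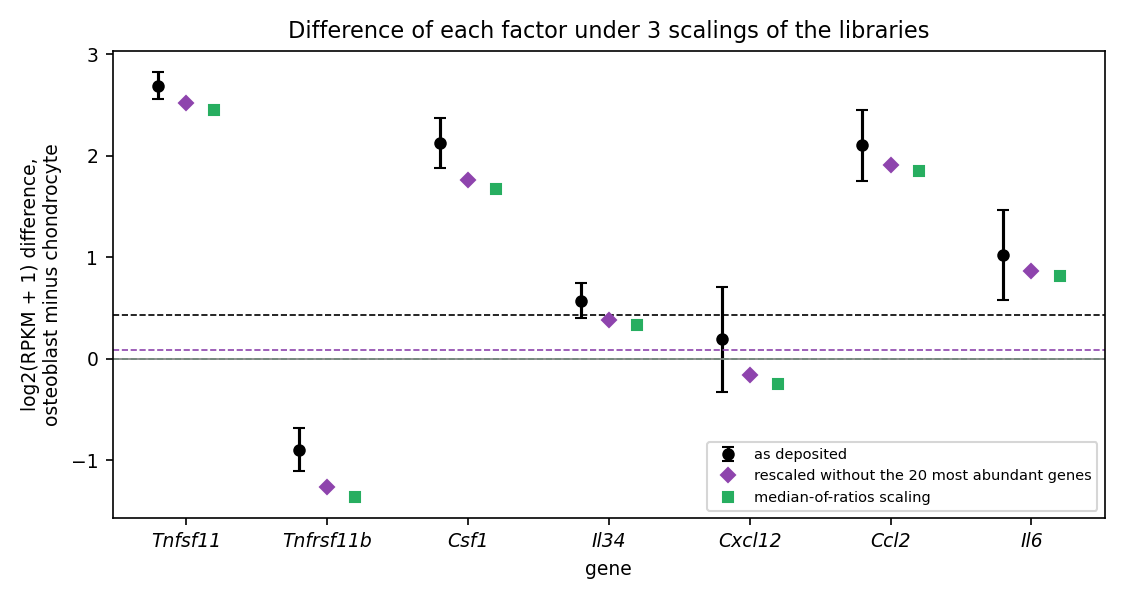
Difference of each gene in log2(RPKM + 1), osteoblast minus chondrocyte, as deposited (black, with SE), after rescaling without the 20 most abundant genes (purple) and after median-of-ratios scaling (green), with dashed lines at the median of all tested genes under each. Tnfsf11, Csf1 and Ccl2 stay between 1.67 and 2.69 and Tnfrsf11b between -1.36 and -0.90 under all 3, while Cxcl12 changes sign. Il6 is from the fit with no filter.

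Cxcl12, a chemokine that holds blood-forming cells in the marrow, did not separate the groups. It stood at 10.6, 10.6 and 6.55 RPKM in osteoblasts, and at 7.35, 3.09 and 18.8 RPKM in chondrocytes. The chondrocyte libraries spanned the whole osteoblast range, with replicate 3 highest of all 6 libraries. The difference was 0.19 on the log2(RPKM + 1) scale (95% interval -1.02 to 1.41; limma, adjusted p = 0.753), so a difference of more than 2-fold either way was not excluded by the interval. Its sign turned after median-of-ratios scaling (-0.25), after rescaling without the 20 most abundant genes (-0.16) and without chondrocyte replicate 2 (-0.36), and it was 0.78 without chondrocyte replicate 3.

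Ccl2, which draws monocytes, was higher in osteoblasts, at 4.08, 7.83 and 3.44 RPKM, against 0.111, 0.0369 and 1.17 RPKM in chondrocytes. The groups did not overlap, as for 8484 of the 11218 genes tested. The chondrocyte values rest on an estimated 3.02, 1.00 and 34.2 reads, so that 1 library carries most of them. The mean was 11.6-fold higher in osteoblasts (log2(RPKM + 1) difference 2.10 ± 0.35 SE; limma, adjusted p = 0.00139), and the call held without any one library (adjusted p 0.000238 to 0.00856). Without chondrocyte replicate 3 the difference was 2.44.

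Il6, a cytokine of the inflammatory response, was low and uneven. It stood at 1.33, 3.84 and 0.647 RPKM in osteoblasts, and at 0.301, 0.137 and 0.486 RPKM in chondrocytes. The groups did not overlap, as for 10616 of 14931 genes with any RPKM of 0.1 or more. Osteoblast replicate 3 (an estimated 19.8 reads) and chondrocyte replicate 3 (19.9 reads) were close. Il6 failed the main filter on low values. Tested with no filter, its difference was 1.03 ± 0.44 (SE; limma, adjusted p = 0.173), and it was 0.59 without osteoblast replicate 2. At the filter of 0.1 RPKM the same difference was called (limma, adjusted p = 0.0363), so the call depended on the filter.

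In osteoblasts the order of mean RPKM was Csf1, Cxcl12, Tnfrsf11b, Tnfsf11, Ccl2, Il6 and Il34, and only Csf1 stood clear of its neighbour, since the ranges of every later pair of neighbours overlapped. In chondrocytes the order was Tnfrsf11b, Cxcl12, Csf1, Il34, Ccl2, Il6 and Tnfsf11. There the ranges of neighbours were separate between Csf1 and Il34 and between Il6 and Tnfsf11. Tnfsf11 was thus the lowest of the 7 genes in chondrocytes and Tnfrsf11b the highest by mean, with Cxcl12 overlapping it.

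Where a gene had several transcripts, the same ones led in both groups. The Csf1 transcript NM_007778, which codes for the long form of 552 residues in the GENCODE M21 match, made up 86.1 ± 3.37% of Csf1 RPKM in osteoblasts and 81.6 ± 14.5% in chondrocytes (SD, n = 3 each). Chondrocyte replicate 2, where Csf1 was lowest, was at 98.3%. NM_001113530, also matched to a form of 552 residues, made up 6.39 ± 2.66% in osteoblasts and 6.71 ± 5.82% in chondrocytes. The share of NM_007778 was thus not the whole share of the 552-residue form. NM_001113529, matched to a form of 257 residues, made up 7.46 ± 0.822% and 11.7 ± 8.77% in the same order. Of Cxcl12, the transcript of the 89-residue alpha form (NM_021704) made up 61.7 ± 4.16% in osteoblasts and 56.7 ± 2.28% in chondrocytes, the 93-residue beta form (NM_013655) 30.4 ± 3.59% and 35.4 ± 2.18%, and the 119-residue gamma form (NM_001012477) 7.91 ± 1.61% and 7.97 ± 0.119%. No difference among the 6 shares passed the test (exact two-sided permutation tests, p = 0.1 to 0.9, adjusted over the 6 p = 0.6 to 0.9), in a design that cannot go below 0.1. Il34 was too low for this comparison, and NM_001135100 led it in every library, at 72.1% to 94.95% in osteoblasts and 61.5% to 72.3% in chondrocytes. How reads were divided between transcripts is not known.

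**Figure D4:**
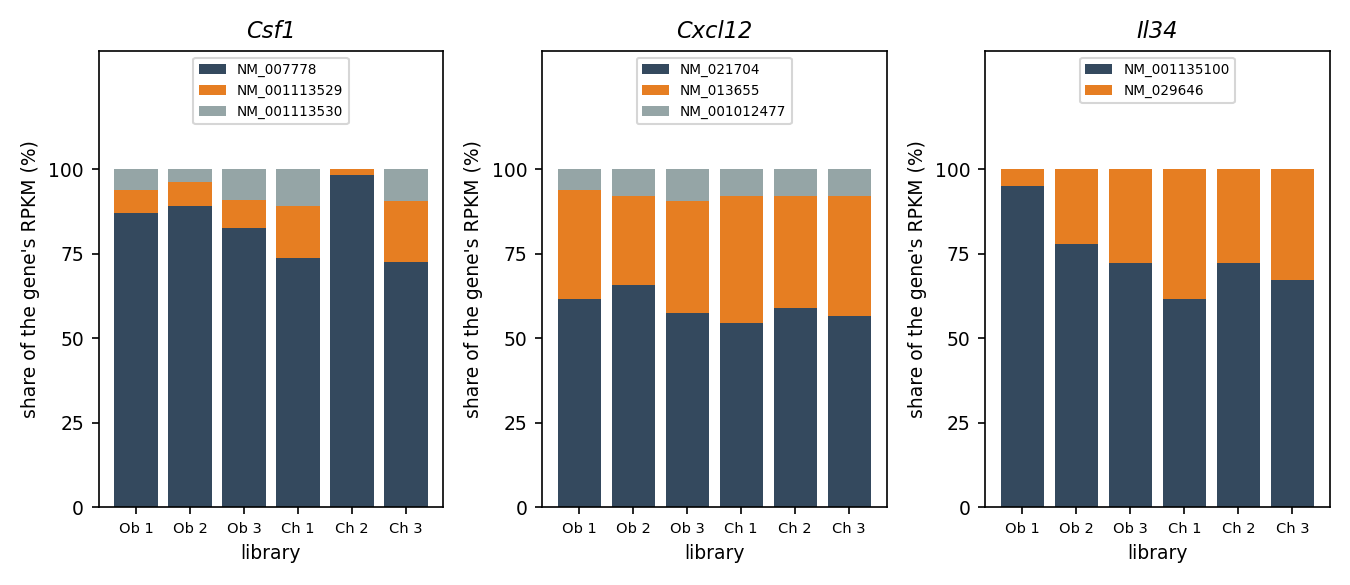
Share of each RefSeq transcript in the summed RPKM of Csf1, Cxcl12 and Il34, with osteoblast libraries (Ob 1 to 3) left of chondrocyte libraries (Ch 1 to 3). NM_007778 of Csf1 takes 72.7% to 98.3%, NM_021704 of Cxcl12 takes 54.4% to 65.8%, and NM_001135100 of Il34 takes 61.5% to 94.95%.

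Receptors of these factors were counted from a list of 10, of which 6 were tested. Of these 3 were higher in osteoblasts, 1 was lower and 2 were not called, beside 55.5% higher and 13.5% lower of all genes tested. The median log2(RPKM + 1) difference was 0.68 against 0.43 over all genes tested. Csf1r, the receptor of Csf1 and Il34, averaged 3.93 ± 0.590 RPKM in osteoblasts and 0.968 ± 0.663 RPKM in chondrocytes (difference 1.37; limma, adjusted p = 0.00131). Ptprz1, a phosphatase that also binds Il34, averaged 4.85 ± 1.55 and 0.0801 ± 0.0621 RPKM in the same order (2.41), and passed the filter through osteoblasts alone. Cxcr7, an atypical receptor that takes up Cxcl12, averaged 23.7 ± 0.983 RPKM in osteoblasts and 13.6 ± 2.56 RPKM in chondrocytes (0.77), and the signalling receptor Cxcr4 was at 0.286 to 0.604 RPKM in osteoblasts, against 0.328 to 0.353 RPKM in chondrocytes.

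Lgr4, a receptor that also binds RANKL, was the receptor that was lower in osteoblasts, at 8.48 ± 0.0763 RPKM against 18.1 ± 3.21 RPKM in chondrocytes (SD, n = 3 each; difference -0.995; limma, adjusted p = 0.000450). RANK itself, Tnfrsf11a, stood at 0.258, 0.331 and 0.177 RPKM in osteoblasts, against 0.0474, 0.0119 and 0.0444 RPKM in chondrocytes, and failed the filter. Il6st, the shared signalling chain of Il6-type cytokines, was at 26.7 to 33.3 RPKM in osteoblasts, against 25.4 to 30.9 RPKM in chondrocytes, and was not called, although after median-of-ratios scaling it was lower in osteoblasts (-0.43; limma, adjusted p = 0.00372).

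Signals known to raise RANKL in stromal cells, with their receptors, made a list of 21, of which 15 were tested. Of these 10 were higher in osteoblasts, 1 (Ctf1) was lower and 4 were not called, beside 55.5% higher and 13.5% lower of all genes tested. The median difference was 1.01, against 0.43 over all genes tested. Pth1r, the receptor of parathyroid hormone, averaged 124 ± 5.18 RPKM in osteoblasts and 28.4 ± 3.75 RPKM in chondrocytes (2.10; limma, adjusted p = 1.14e-05). Lif and its receptor Lifr were both higher, Lif at 3.78 ± 0.416 against 0.150 ± 0.0672 RPKM and Lifr at 13.8 ± 1.61 against 1.43 ± 0.427 RPKM in chondrocytes. Ptges, an enzyme of prostaglandin E2 synthesis, averaged 10.6 ± 1.34 RPKM in osteoblasts and 0.383 ± 0.276 RPKM in chondrocytes (3.07). Lif and Ptges passed the filter through osteoblasts alone and could only be called higher. Ctf1, a cytokine of the Il6 type, averaged 2.92 ± 0.503 RPKM in osteoblasts and 4.22 ± 0.539 RPKM in chondrocytes (-0.42; limma, adjusted p = 0.0255), a call lost without osteoblast replicate 2, osteoblast replicate 3 or chondrocyte replicate 1, and without chondrocyte replicate 2 the list had 3 lower genes. Osmr, the oncostatin M receptor, was the abundant uncalled gene, at 4.11 ± 0.792 RPKM in osteoblasts, against 6.70 ± 2.48 RPKM in chondrocytes (limma, adjusted p = 0.0608), and it was called lower after median-of-ratios scaling (0.00589) and without chondrocyte replicate 2 (0.0292).

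Other factors that act on osteoclasts made a list of 18, of which 15 were tested: 11 were higher in osteoblasts, 1 was lower and 3 were not called. Their median difference was 1.30, against 0.43 over all genes tested. Spp1, osteopontin, averaged 1457 ± 292 RPKM in osteoblasts and 39.9 ± 3.40 RPKM in chondrocytes (5.14). Sema3a, a secreted semaphorin that restrains osteoclasts, averaged 8.80 ± 0.302 RPKM in osteoblasts and 0.307 ± 0.258 RPKM in chondrocytes (2.92; limma, adjusted p = 6.22e-06). Sema3a, Wnt16 and Dkk1, 3 of the 15, passed the filter through osteoblasts alone, so their direction was fixed. Sfrp1, a Wnt antagonist that can bind RANKL, was the gene that was lower, at 4.13 ± 0.647 RPKM in osteoblasts, against 58.7 ± 12.7 RPKM in chondrocytes (-3.53). Over these 3 lists and the chemokines, each gene counted once, 31 of 45 tested were higher in osteoblasts and 3 lower, beside 55.5% and 13.5% of all genes tested. The 45 include genes that passed the filter through osteoblasts alone and could only be called higher. These were 1 receptor, 2 of the RANKL-raising list, 3 of the other factors and 3 chemokines, beside 675 of 11218 over all genes tested. After median-of-ratios scaling 28 genes of the 4 lists were higher and 10 lower, beside 3342 and 3533 of 11158 genes. Leaving out chondrocyte replicate 2 made the lower count 5.

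Of 32 other CC and CXC chemokines 31 were in the table and 9 were tested. Among the 9, 7 were higher in osteoblasts and 2 (Cxcl2 and Cxcl14) were not called, beside 55.5% higher and 13.5% lower of all genes tested. The median difference was 1.67, against 0.43 over all genes tested. Ccl5, Ccl19 and Cxcl10, 3 of the 9, passed the filter through osteoblasts alone and could only be called higher. Ccl7, the neighbour of Ccl2 in function as a monocyte attractant, stood at 6.996, 10.98 and 5.83 RPKM in osteoblasts, and at 0.149, 0.0372 and 1.43 RPKM in chondrocytes, the same order of libraries as Ccl2. Cxcl10 averaged 5.60 ± 3.08 RPKM in osteoblasts and 0.242 ± 0.167 RPKM in chondrocytes (2.30; limma, adjusted p = 0.000834). Cxcl1, a neutrophil attractant, averaged 8.55 ± 7.06 RPKM in osteoblasts and 1.35 ± 0.788 RPKM in chondrocytes (1.82; limma, adjusted p = 0.0177), a call lost without chondrocyte replicate 2 (0.0772). Cxcl14 was the most abundant of the list, at 59.1 ± 11.4 RPKM in osteoblasts, against 47.0 ± 4.27 RPKM in chondrocytes. It was not called, except without osteoblast replicate 3 (limma, adjusted p = 0.0379), and its sign turned under both rescalings.

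Markers of myeloid cells and osteoclasts, which share Csf1r and Tnfrsf11a with the receptors above, also differed between the groups. Of 9 tested myeloid markers 7 were higher in osteoblasts, Cd14 was lower and Fcgr3 was not called, beside 55.5% higher and 13.5% lower of all genes tested. Cd68 and Emr1, 2 of the 9, passed the filter through osteoblasts alone and could only be called higher. The summed RPKM of the 13 listed in the table was 27.7 to 32.8 in osteoblasts and 6.08 to 18.6 in chondrocytes, with Lyz2 at 7.43 ± 1.58 and 1.19 ± 1.32 RPKM and Ptprc, which marks blood cells, at no more than 0.345 RPKM. Of 11 osteoclast markers 5 were tested: Acp5, Ctsk, Mmp9 and Itgb3 were higher in osteoblasts and Nfatc1 was lower, at 17.5 ± 1.21 RPKM in osteoblasts, against 64.2 ± 24.1 RPKM in chondrocytes. Mmp9 and Itgb3 passed the filter through osteoblasts alone, so their direction was fixed. The summed RPKM of the list was 225 to 240 in osteoblasts and 91.6 to 224 in chondrocytes, most of it Ctsk in osteoblasts, whose call was lost without any one of 5 libraries. Calcr, the calcitonin receptor, was at the floor of the table in all 6 libraries, and Dcstamp, needed for osteoclast fusion, in all 3 osteoblast libraries. The part of such cells in the levels of the factors was not tested.

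Within the osteoblast group, Ccl2 and Il6 were highest in replicate 2 and Tnfsf11 and Csf1 in replicate 1. The following genes were picked after their values were seen. In osteoblast replicate 2, relative to the mean of replicates 1 and 3, Il6 was 3.898 times as high, Ccl2 2.08, Cxcl1 3.58, Ptgs2 2.25, and the heat shock gene Hspa1a 3.17, whereas Csf1 was at 1.06 and Tnfsf11 at 0.83. Over all genes tested the median of this ratio was 1.03, and 90% of genes lay between 0.823 and 1.29. Between the groups, 6 of 18 immediate early and stress genes were higher in osteoblasts, 3 were lower and 9 were not called, beside 55.5% higher and 13.5% lower of all genes tested. Their median difference was 0.11, and their summed RPKM was 2251 to 3247 in osteoblasts and 2018 to 3739 in chondrocytes. After median-of-ratios scaling 3 were higher and 8 lower, after rescaling without the 20 most abundant genes 5 and 7, and without osteoblast replicate 3 the counts were 7 and 1. Of 14 early targets and members of the NF-kB pathway 9 were higher, 1 (Rel) was lower and 4 were not called, beside the same shares of all genes tested. Tnfaip2, 1 of the 9, passed the filter through osteoblasts alone and could only be called higher. Icam1 stood at 22.7 ± 4.14 RPKM in osteoblasts, against 2.10 ± 1.02 RPKM in chondrocytes. After median-of-ratios scaling 4 genes of the NF-kB list were higher and 1 lower. Enzyme and sorting differed with the group, and their part was not tested.

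Within the chondrocyte group, replicate 3 held the highest value of 6 of the 7 factors, all but Tnfrsf11b, and replicate 2 the lowest of 6, all but Tnfsf11. Over all genes tested, replicate 3 was the highest chondrocyte library for 46.9% and replicate 2 the lowest for 67.6%. Relative to the mean of replicates 1 and 2, replicate 3 held 3.5997 times as much Cxcl12, 15.9 times as much Ccl2 and 1.75 times as much Csf1. Over all genes tested the median of this ratio was 1.10 and 90% of genes lay between 0.708 and 1.93, a range that holds Csf1. The bone and connective tissue collagens Col1a1 and Col3a1 stood at 3.43 and 3.34 times, the fibroblast marker Thy1 at 4.19, the myeloid marker Lyz2 at 6.16, and Col2a1 at 0.626. The summed RPKM of 10 perichondrium and fibroblast markers was 3188 to 4676 in osteoblasts, and 2184, 1658 and 5366 in chondrocyte replicates 1 to 3. Of 9 tested, 5 were higher in osteoblasts (3 to 5 without any one library), Col14a1 was lower and 3 were not called. Of all genes tested 55.5% were higher and 13.5% lower. Dpt, 1 of the 5, passed the filter through osteoblasts alone and could only be called higher. The part of these cells in the chondrocyte levels was not tested, and without chondrocyte replicate 3 Tnfsf11, Csf1 and Ccl2 were called higher and Tnfrsf11b lower in osteoblasts as before.

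**Figure D5:**
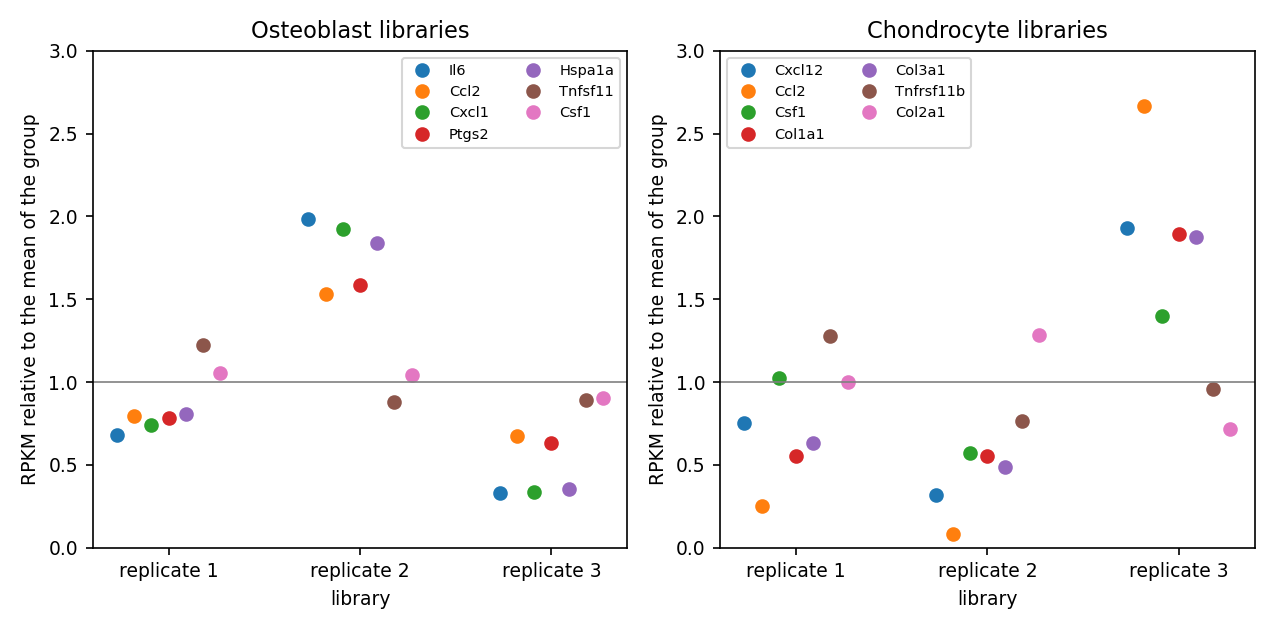
RPKM relative to the mean of the group in each library, for osteoblasts (left) and chondrocytes (right), for factors and for other genes picked after their values were seen. In osteoblast replicate 2, Il6, Ccl2, Cxcl1, Ptgs2 and Hspa1a lie above the mean while Csf1 and Tnfsf11 lie near it, and in chondrocyte replicate 3, Cxcl12 and Ccl2 lie high with Col1a1 and Col3a1 while Col2a1 lies low.

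Genes of like pattern were found for each tested factor by the Euclidean distance of log2(RPKM + 1), centred on the mean of the gene, over the 6 libraries. Nearest to Tnfsf11 were Foxd1 (distance 0.18), Angpt2 (0.25) and Rac3 (0.27), and Angpt2 also had a like level, at 7.86, 5.91 and 6.45 RPKM in osteoblasts and at most 0.0704 RPKM in chondrocytes. Nearest to Tnfrsf11b were Klf10 (0.24), Pir (0.30) and Khk (0.30). Nearest to Csf1 were Nlgn2 (0.14), Prrx1 (0.16) and Ppfibp2 (0.17), and nearest to Ccl2 were Nnmt (0.36), Adcy7 (0.50) and Loxl2 (0.51). Nearest to Cxcl12 were Pamr1 (0.31), Ntn1 (0.35) and Plxdc2 (0.43), all 3 with their highest value in chondrocyte replicate 3. Nearest to Il34 were Cask (0.14), Eml1 (0.14) and Bola3 (0.15), 3 genes whose calls, like that of Il34, were lost after median-of-ratios scaling. The shared peak of the genes near Cxcl12 and the shared loss of calls near Il34 largely follow from the choice by distance over the same libraries.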

How the data were processed

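RNA was measured by RNA-seq in 6 libraries. The authors deposited RPKM values, 1 line per RefSeq transcript, and every value carries an added constant of 0.0001. TopHat2 2.0.8 and build mm9 are listed in the submitters' processing notes, which as given here name no counting program. The column headers give every library the same lane number. They name no run or flow cell, so 1 shared lane is not shown. Transcripts of a symbol were added up. Genes reaching 1 RPKM in 3 or more of the 6 libraries were tested on log2(RPKM + 1) by limma 3.58.1 (R 4.3.3; two-sided, trended prior variance, robust), and Benjamini-Hochberg adjusted p under 0.05 was the threshold. The procedure was tested on simulated data.

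Reads were estimated from the steps of low values and transcript lengths in GENCODE M21, which serves build GRCm38 and gave lengths only: 53.1% to 60.7% of low values lay no more than 0.05 from whole reads, where chance gives 10%, and read estimates cover counting error only.

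The factors and lists were chosen with earlier results of these data known. Named genes are the factors, up to 4 called genes of largest difference and 1 uncalled gene per list, and 3 nearest genes per factor. Not every gene the rule takes is named, and genes that complete small counts or show 1 library's pattern were named after their values were seen.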

Additional observations from a re-analysis of the deposited data

How the results depend on the processing

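Tnfsf11, Csf1 and Ccl2 stayed called higher in osteoblasts under every alternative that could be run for them, and so did Tnfrsf11b as lower except with no filter (-0.90; limma, adjusted p = 0.0683). The call of Il34 ended with no filter (0.58), after median-of-ratios scaling (0.33) and after rescaling without the 20 most abundant genes (0.38), and its difference was 0.47 to 0.76 without any one library. Cxcl12 reversed under both rescalings (-0.25 and -0.16) and ranged from -0.36 to 0.78 without any one library. Il6 became called in 2 fits added after seeing the data, voom on estimated reads (2.43; limma, adjusted p = 0.0305) and the filter of 0.1 RPKM (1.03), against an adjusted p of 0.102 to 0.347 under its other alternatives. With no filter the SE of Tnfrsf11b was 0.26, against 0.21. Genes called higher and lower, 6224 and 1512, were 4092 and 885 at a mean RPKM of at least 5, where fewer genes were tested, 3342 and 3533 after median-of-ratios scaling, and 3888 and 3020 without the 20 most abundant genes. Pathway genes called higher were 13 at a mean RPKM of at least 5, against 31. Those called lower were 10 and 9 under the rescalings, against 3, and 2 to 5 without any one library. The third Csf1 transcript share difference ranged from -3.65 to 1.73 percentage points without any one library, and the gamma share of Cxcl12 from -0.88 to 0.73. Where no construction is named, the cause was not tested. A mean RPKM of at least 5 left out Tnfsf11, Il34, Ccl2 and Il6, and 1 transcript per gene left out Il34.

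Replicate numbers recur in both groups, but same-numbered libraries did not deviate together across tested genes (r = 0.08, 0.01 and -0.15). With the replicate block, 5892 genes were higher and 1376 lower, and no call among the 7 factors changed, with Tnfsf11 at 2.69, Tnfrsf11b at -0.90, Csf1 at 2.12, Il34 at 0.58, Cxcl12 at 0.19, Ccl2 at 2.10 and Il6 at 1.03. Every replicate number occurs in both groups, so the block could change only the tests and not these differences. The ratio differences, 3.59 for Tnfsf11 over Tnfrsf11b and 1.55 for Csf1 over Il34, could not change either, and no blocked test of them was run. The counts of list members called were 31 higher and 4 lower for pathway genes under the block. Depth limits Tnfsf11 and Ccl2 in chondrocytes, where single libraries rest on an estimated 1.00 read.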

Other observations

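Marrow reticular cells are known to make Cxcl12 in adult bone. Of 8 tested markers of marrow stromal and reticular cells, 5 were higher in osteoblasts, 2 (Foxc1 and Grem1) were lower and Ebf3 was not called. Grem1 passed the filter through chondrocytes alone and could only be called lower. Of all genes tested 55.5% were higher and 13.5% lower. After median-of-ratios scaling Ebf3 was called lower (-0.57; limma, adjusted p = 0.0129) and the call of Pdgfrb as higher was lost (0.136). Ebf3 was also called lower without chondrocyte replicate 2 (0.00212). Lepr, the leptin receptor, reached 15.9 ± 1.39 RPKM in osteoblasts, against 3.64 ± 1.71 RPKM in chondrocytes (mean and SD of 3 libraries; limma, adjusted p = 0.000426), and Grem1, a BMP antagonist, averaged 0.304 ± 0.0317 and 6.48 ± 3.98 RPKM in the same order. Adipoq was at no more than 0.0242 RPKM in any library.

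The summed RPKM of 10 endothelial markers was 2.95 to 6.76 in osteoblasts and 5.76 to 10.8 in chondrocytes, with Egfl7 the only one tested and not called. Muscle markers summed to 1.36 to 2.11 RPKM in osteoblasts and 11.3 to 43.45 RPKM in chondrocytes, mostly Tnnt3 there, while Ckm was at the floor in all 6 libraries. Red blood cell markers summed to 28.9 to 64.2 RPKM in osteoblasts and 5.35 to 28.9 RPKM in chondrocytes, and Hba-a1 was the 1 of 4 tested that was called (higher in osteoblasts; limma, adjusted p = 0.0235, lost without osteoblast replicate 2 or 3).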
